A study of Homo sapiens with 5 samples.

Results

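Metallothioneins are small cysteine-rich proteins that bind zinc and copper. Their genes were examined here together with 3 genes of the zinc response that surrounds them, in RNA of 2 lung adenocarcinoma cell lines mixed in known ratios. The group has 10 genes of the 61220 in the annotation: MT2A, MT1E, MT1X, MT1F, MT1A, MT1M and MT1G, the zinc sensor MTF1, the zinc exporter SLC30A1 and the zinc importer SLC39A10. Every transcript that GENCODE v44 assigns to one of these genes was taken, 35 in all, of which 27 had reads, and the reads of each gene were summed. The members were chosen by these gene sums, in reads per library total (CPM) of the same libraries, so their levels are given as a description and without a test. Of the 10 genes, 9 had reads, and the same 9 passed the filter of at least 10 reads in at least 2 libraries. MT1G had none.

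NCI-H1975 and HCC827 are established lines, both from lung adenocarcinomas with activating EGFR mutations, and were grown in medium with fetal calf serum. Poly(A) RNA of NCI-H1975 carried sequins (synthetic spike-in transcripts) of mix A and RNA of HCC827 sequins of mix B, per the labels. The RNAs were combined by mass so that HCC827 made up 0, 25, 50, 75 or 100%, with 1 library per ratio, and all 5 barcoded cDNA libraries ran on a single PromethION nanopore flow cell. Libraries are named below by their NCI-H1975 to HCC827 ratio, from 100:0 to 0:100, and values follow that order. One RNA preparation of each line fed all libraries, so the differences below compare those preparations, and their spread does not cover separate cultures.

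Library totals were between 2932250 and 4058751 reads. Sequin reads numbered 5475, 4678, 2830, 1269 and 0, fewer at each step towards HCC827. The library labelled 0:100 thus held none of the spike-in that its label names. Whether the sequins of HCC827 reached the mixed libraries was not tested. Values without 0:100 are given below for named genes whose call was lost without it, and for several whose slope changed in size. The mean length of the transcripts to which reads were assigned was 2579 bases in 100:0 and 2180 bases in 0:100, and fell from each library to the next. Of the 6 epithelial markers examined (EPCAM, KRT7, KRT8, KRT18, KRT19 and CDH1), all were read in every library. Their sum was 18924 reads in 100:0 and 42477 in 0:100, or 6454 and 13735 CPM. Each keratin had a higher CPM in 0:100 than in 100:0. EPCAM went the other way, from 435 to 323 CPM, and CDH1 had 108 and 126. The lung lineage marker NKX2-1 had 140 reads in 100:0 and 295 in 0:100. The blood marker PTPRC and the fibroblast marker DCN were at 0 in every library, and the endothelial markers PECAM1 and CDH5 had 10 and 2 reads in all. The fibroblast collagen COL1A1 had 532, 508, 351, 163 and 19 reads, and its part in the results below was not tested. In bulk RNA, fewer cells that express a gene and less of its RNA per cell cannot be told apart.

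Metallothioneins hold zinc and copper through clusters of cysteine thiolates and buffer the free metal of the cell. When free zinc rises, the zinc finger protein MTF1 enters the nucleus, binds metal response elements in the promoters of metallothionein genes and of SLC30A1, and raises their transcription. SLC30A1 then carries zinc out across the plasma membrane, while importers of the SLC39 family, such as SLC39A10, carry it in. Glucocorticoids and oxidative stress also induce metallothioneins, and the human MT1 and MT2 genes stand side by side on the long arm of chromosome 16.

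Promoters were searched for the letters of the metal response element. The RefSeq promoter table (GRCh38.p14) held 5 of the 10 genes: MT2A, MT1X, MTF1, SLC30A1 and SLC39A10. MT1E, MT1F, MT1A, MT1M and MT1G were not matched. The 250 bases before the start of the most abundant metallothionein, of a second one and of the exporter are printed 5′ to 3′ on the strand of the gene. Capitals mark the 7-letter core of the metal response element, searched as TGCACNC or TGCGCNC on both strands (GNGTGCA or GNGCGCA where it lies on the other strand). They cover chr16:56608334-56608583 on the plus strand for MT2A, chr16:56682220-56682469 on the plus strand for MT1X and chr1:211579162-211579411 on the minus strand for SLC30A1.
MT2A promoter: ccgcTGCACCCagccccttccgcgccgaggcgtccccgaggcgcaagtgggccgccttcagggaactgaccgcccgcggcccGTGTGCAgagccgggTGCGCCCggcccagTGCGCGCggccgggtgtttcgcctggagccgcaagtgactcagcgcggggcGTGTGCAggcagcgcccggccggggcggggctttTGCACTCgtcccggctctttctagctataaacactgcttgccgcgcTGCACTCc
MT1X promoter: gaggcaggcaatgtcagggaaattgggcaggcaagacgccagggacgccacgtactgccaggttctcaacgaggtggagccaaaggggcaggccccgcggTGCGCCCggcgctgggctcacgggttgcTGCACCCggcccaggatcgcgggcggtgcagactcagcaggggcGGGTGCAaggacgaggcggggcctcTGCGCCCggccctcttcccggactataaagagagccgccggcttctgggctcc
SLC30A1 promoter: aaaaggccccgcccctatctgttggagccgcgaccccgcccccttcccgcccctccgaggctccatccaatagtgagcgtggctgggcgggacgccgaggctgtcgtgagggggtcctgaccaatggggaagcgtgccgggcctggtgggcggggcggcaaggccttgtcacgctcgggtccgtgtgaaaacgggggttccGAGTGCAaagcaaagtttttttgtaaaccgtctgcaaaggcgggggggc

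The MT2A window held 7 matches, which began 246, 168, 153, 139, 88, 54 and 8 bases before the start of the gene. MT1X had 4, at 150, 122, 78 and 53 bases, and SLC30A1 had 1, at 49 bases. Windows of the same length before 35116 RefSeq promoters gave the background: 24.8% held at least 1 match, 0.370% at least 4 and 0.0313% at least 7. The window of MTF1 and both windows of SLC39A10 held 0. Outside the group, the windows of MT1H, MT1B and MT4 held 8, 3 and 3 matches. These genes, named for their promoters, had 1, 0 and 0 reads in all libraries together. A match of letters is a description and not a measured binding site, and these libraries hold no measurement of binding.

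The coding sequences are short and close to each other, which bears on how reads are assigned. The coding sequences of the main transcripts of MT2A and MT1X, spliced from exons on the plus strand of chromosome 16 (GENCODE v44, GRCh38), are printed to show this, each 186 bases long with the stop codon. Capitals mark the 14 bases at which they differ, which leaves an identity of 92.5%.
MT2A coding sequence: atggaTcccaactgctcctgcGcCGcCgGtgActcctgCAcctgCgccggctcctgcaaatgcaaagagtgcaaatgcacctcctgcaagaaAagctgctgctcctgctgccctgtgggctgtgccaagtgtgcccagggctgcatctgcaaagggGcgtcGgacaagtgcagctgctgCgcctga
MT1X coding sequence: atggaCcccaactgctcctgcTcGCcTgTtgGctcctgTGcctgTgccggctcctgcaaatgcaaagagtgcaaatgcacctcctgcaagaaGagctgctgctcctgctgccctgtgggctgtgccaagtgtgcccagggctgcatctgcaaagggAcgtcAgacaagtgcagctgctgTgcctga

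Over the 21 pairs of the 7 metallothionein coding sequences, identity was between 88.7% (MT1X with MT1F) and 94.6% (MT1E with MT1A), with a median of 91.9%. The whole transcripts differ more, because their untranslated ends do. Of the 31-base words in the main transcript of each gene, the share also found in another of the 7 genes was 14.0% for MT2A, 6.83% for MT1E, 21.7% for MT1X, 10.6% for MT1F, 14.5% for MT1A, 15.8% for MT1M and 22.6% for MT1G. How the authors' counting divided reads that fit several of these genes is not given in the sources used here. Low counts beside a highly expressed paralog are therefore uncertain, which concerns MT1F, MT1A, MT1M and MT1G, and the 4 reads of MT1E in 0:100.

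MT2A, the most abundant metallothionein in both lines, lies at chr16:56608584-56609497 on the plus strand (ENSG00000125148.7). It had 10350, 11857, 10384, 6820 and 5991 reads. In CPM (reads of a gene per 1000000 reads of the library) this was 3530, 2921, 2677, 2217 and 1937. Each library had a lower CPM than the one before, and the libraries stood in the order of their NCI-H1975 share. Scaling by TMM, which sets the libraries to a common level over most genes, gave 3049, 2747, 2665, 2384 and 2228. The exact Poisson 95% intervals of neighbouring libraries were separate in 3 of 4 pairs. Between the pure libraries MT2A was thus 1.37-fold lower in HCC827 by TMM (log2 ratio −0.45, 95% counting interval −0.50 to −0.41) and 1.82-fold lower by library totals. Such intervals cover counting error only, and copies made by PCR are not independent molecules.

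MT1E (chr16:56625475-56627112, plus strand), the second most abundant metallothionein of NCI-H1975, was nearly absent from HCC827. It had 3026, 2760, 1855, 721 and 4 reads, or 1032, 680, 478, 234 and 1.29 CPM. No interval overlapped its neighbour. The TMM-scaled level was 892 in 100:0 and 1.49 in 0:100, a ratio of 599-fold (log2 ratio −9.23, interval −11.10 to −7.87, wide because of the 4 reads). With the 0:100 count set to a limit of 10 reads, the log2 ratio was −7.91. In the 4 libraries that contain NCI-H1975 RNA, without 0:100, the level still stepped down in order, from 892 to 252.

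MT1X (chr16:56682470-56684196, plus strand), the metallothionein nearest to the downstream end of the cluster, had 615, 722, 586, 404 and 338 reads. Its CPM was 210, 178, 151, 131 and 109, again in the order of the NCI-H1975 share, although the TMM-scaled intervals of all 4 neighbouring pairs overlapped. By TMM the level was 1.44-fold lower in the HCC827 library than in the NCI-H1975 library (log2 ratio −0.53, interval −0.72 to −0.33). This difference was close in size to that of MT2A.

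MT1A and MT1F did not share that direction. MT1A (chr16:56638666-56640087, plus strand) had 39, 99, 90, 77 and 80 reads, or 11.5, 22.9, 23.1, 26.9 and 29.8 TMM-scaled CPM. The level was lowest in 100:0, whose interval was separate from that of 75:25, and the other 4 libraries overlapped with their neighbours. In the HCC827 library it was 2.59-fold higher (log2 ratio 1.37, interval 0.80 to 1.96).

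MT1F (chr16:56657731-56660698, plus strand) had 66, 95, 91, 86 and 62 reads, or 19.4, 22.0, 23.4, 30.1 and 23.1 TMM-scaled CPM. Its intervals overlapped, the highest library was the mixed 25:75, and its log2 ratio of 0.25 (interval −0.28 to 0.77) turned to −0.17 when library totals were used in place of TMM. No direction could be given for MT1F.

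MT1M (chr16:56632659-56633981, plus strand) was rare, with 31, 16, 18, 3 and 0 reads. Most of its reads were in the libraries with more NCI-H1975 RNA, although the 50:50 library stood above 75:25 in CPM (4.64 against 3.94). With the 0 of HCC827 set to a limit of 3 reads in that library, MT1M was 8.19-fold lower there by TMM (log2 ratio −3.03). A limit of 10 reads gave −1.30, so the size depended on the limit. The exact 95% interval from the counts of 31 and 0, which uses no such limit, had its upper end at −2.65 and no lower end. Per 1000 MT1E reads it had 10.2, 5.80, 9.70, 4.16 and 0 reads.

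MT1G (chr16:56666730-56668065, minus strand) had 0 reads in all libraries. A count of 0 allowed up to 1.02, 0.739, 0.773, 0.975 and 0.970 CPM, so its level was below detection at this depth, as far as reads shared with other members were not assigned to those. The other 14 metallothionein genes and pseudogenes of the annotation had 10 reads together, and none reached 10 on its own.

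**Figure D1:**
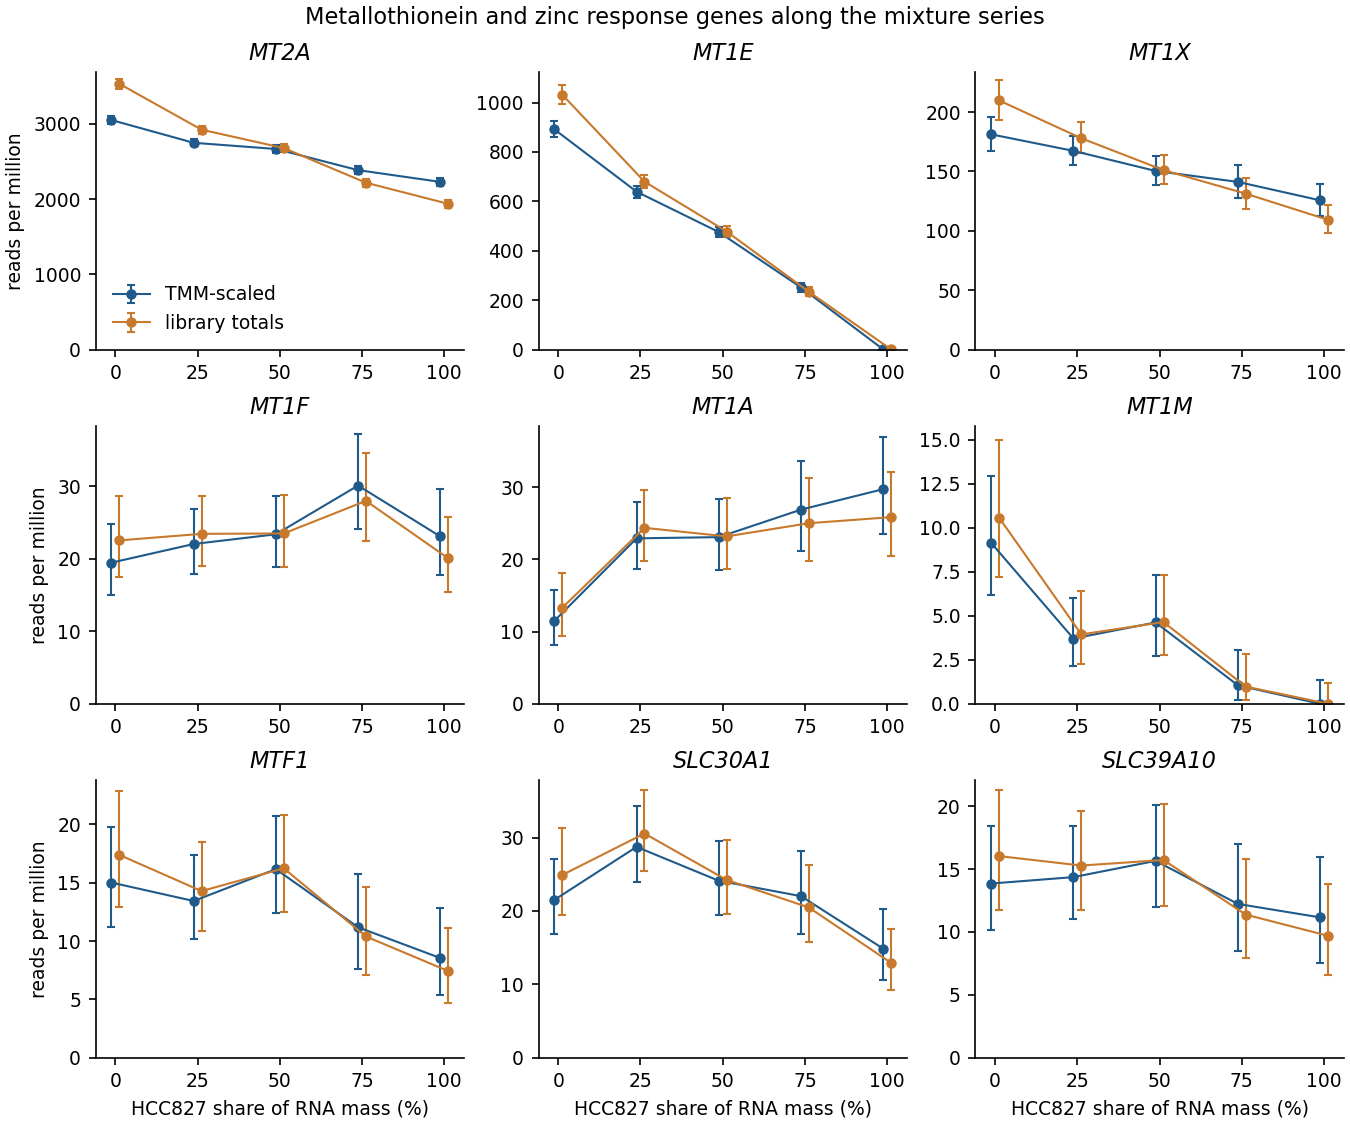
TMM-scaled CPM and CPM by library totals of the 9 genes with reads in the 5 libraries, on linear axes. Values are plotted against the percentage of HCC827 RNA, with exact Poisson 95% intervals as bars. TMM-scaled, MT1E drops from 892 to 1.49 and MT2A from 3049 to 2228, while MT1A is higher in 0:100 (29.8) than in 100:0 (11.5).

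Divided by transcript length, as CPM per kilobase, the order in 100:0 was MT2A at 6636, MT1E at 1646 and MT1X at 299. The division assumes that longer transcripts give more reads, which was not tested for these nanopore libraries. MT1A at 33.6, MT1F at 32.1 and MT1M at 26.6 followed, and the counting intervals of these 3 overlapped. Without the division MT1F stood first of these 3, at 22.5 CPM, with MT1A at 13.3 and MT1M at 10.6. In 0:100 MT2A stood at 3642, MT1X at 156, MT1A at 65.3, MT1F at 28.6 and MT1E at 2.06. MT1E thus moved from the second place to the fifth among the metallothioneins.

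The 6 metallothioneins with reads took 0.482, 0.383, 0.336, 0.264 and 0.209% of all reads. Their summed CPM was 4818 in 100:0 and 2094 in 0:100, a 2.30-fold difference by library totals and a 1.73-fold difference by TMM. MT2A accounted for 58.5% of the difference in CPM and MT1E for 37.8%, whereas on the TMM scale MT2A accounted for 46.8% and MT1E for 50.7%, so which gene contributed more depended on the scaling. The make-up of the family differed as well. MT2A held 73.3% of metallothionein reads in 100:0 (95% Wilson interval 72.5 to 74.0), then 76.3, 79.7 and 84.1%, and 92.5% in 0:100 (91.9 to 93.1). MT1E held 21.4%, 17.8%, 14.2%, 8.89% and 0.0618% (0.0240 to 0.159 in 0:100). The share of MT2A was higher, and that of MT1E lower, at each step along the mixture.

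**Figure D2:**
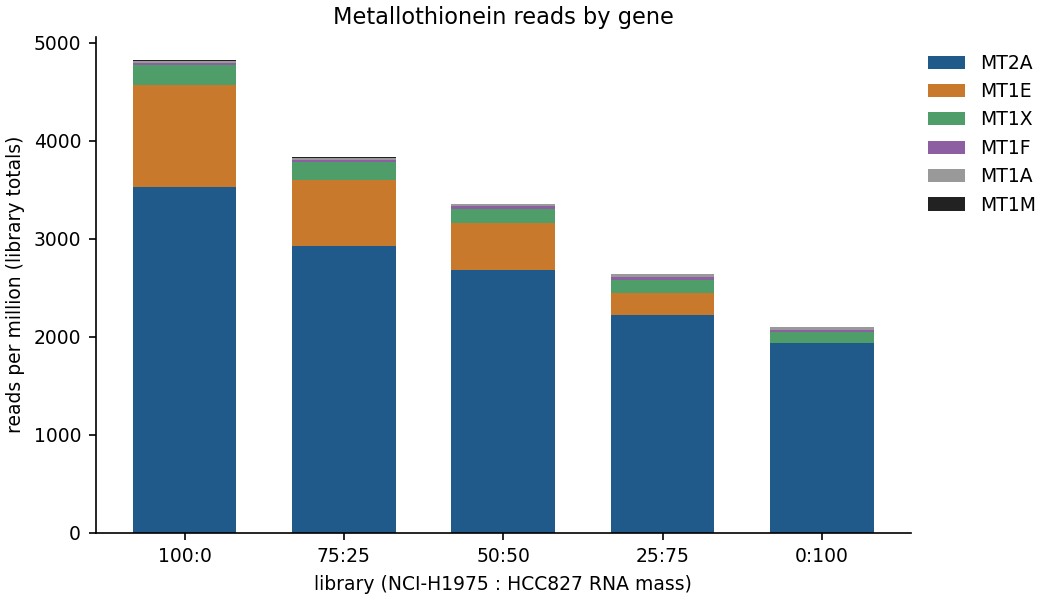
Metallothionein reads of each library by gene, stacked in CPM by library totals. The whole bar is 4818 in 100:0 and 2094 in 0:100. The MT2A part goes from 3530 to 1937 CPM, and the MT1E part from 1032 to 1.29. As shares of the bar, MT2A is 73.3% in 100:0 and 92.5% in 0:100, and MT1E 21.4% and 0.0618%.

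One further transcript of the cluster had nearly the pattern of MT1E. ENSG00000291105, a long non-coding RNA at chr16:56617423-56618832 on the plus strand, starts 8839 bases after the start of MT2A and overlaps the pseudogene MT1L on the same strand. It had 287, 213, 170, 60 and 1 reads, or 97.9, 52.5, 43.8, 19.5 and 0.323 CPM, while MT1L had 0. In the 4 libraries with NCI-H1975 RNA there were 94.8, 77.2, 91.6 and 83.2 of its reads per 1000 MT1E reads. Of its 448 words of 31 bases, 34 (7.59%) were also found in a metallothionein listed above and 16 (3.57%) in MT1E, and which gene such shared stretches came from was not tested.

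Among the regulator and the zinc carriers, all 3 had few reads. MTF1 (chr1:37809574-37859592, minus strand), the transcription factor that senses zinc, had 51, 58, 63, 32 and 23 reads, or 15.0, 13.4, 16.2, 11.2 and 8.55 TMM-scaled CPM. The lowest level of MTF1 was that of 0:100, although all of its neighbouring intervals overlapped. Its log2 ratio between the pure libraries was −0.81 (interval −1.59 to −0.076). Its slope over the series, the fitted log2 change from 100:0 to 0:100, was −0.66 ± 0.34 (SE, 5 libraries), −0.33 ± 0.43 without 0:100 and −1.07 under library totals. Per kilobase it was the lowest of the 9 genes in 100:0, at 2.19 CPM, and the lowest of those with reads in 0:100, at 0.937. This order came from the division by its length. In plain CPM it had 17.4 in 100:0, above SLC39A10 (16.0), MT1A (13.3) and MT1M (10.6) and below the other members with reads. In 0:100 its 7.44 CPM stood above MT1E (1.29).

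SLC30A1 (chr1:211571568-211579161, minus strand), the exporter that MTF1 induces, had 73, 124, 94, 63 and 40 reads. This was 21.5, 28.7, 24.1, 22.0 and 14.9 TMM-scaled CPM, highest in the mixed 75:25 library and lowest in 0:100. The log2 ratio of −0.53 between the pure libraries by TMM had an interval from −1.13 to 0.044. By library totals the ratio was −0.94, and the CPM intervals of the pure libraries were separate (19.5 to 31.3 and 9.24 to 17.6). The slope of SLC30A1 was −0.53 ± 0.30 over all libraries and −0.94 ± 0.30 under library totals. It was −0.079 ± 0.35 without 0:100 and −1.12 ± 0.36 without 100:0, so its size depended on either pure library.

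SLC39A10 (chr2:195575977-195737702, plus strand), an importer of the plasma membrane, had 47, 62, 61, 35 and 30 reads, or 13.9, 14.4, 15.7, 12.2 and 11.2 TMM-scaled CPM. All of its neighbouring intervals overlapped, and its log2 ratio of −0.31 by TMM (interval −1.02 to 0.38) gave no direction beyond counting error. By library totals the ratio was −0.72. The slope of SLC39A10 was −0.31 ± 0.31 by TMM and −0.72 ± 0.30 under library totals, so its size depended on the scaling.

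The slopes of the 10 genes can be set beside those of all genes, as a description, since these values were known when the list was made. The median slope of the 9 genes with reads was −0.52 against −0.035 over all 13492 genes tested. MT2A had a slope of −0.44 ± 0.09, MT1X of −0.52 ± 0.12 and MT1A of 1.06 ± 0.29 (SE). Under library totals these slopes were −0.85, −0.93 and 0.65, beside a median of −0.44 over all genes. MT1F had 0.40 ± 0.26, 0.79 ± 0.31 without 0:100 and −0.011 under library totals. For MT1E the slope was −4.28 ± 1.03, and −2.33 ± 0.19 without 0:100, since a mixture is curved on a log scale. MT1A had 0.54 ± 0.33 without 100:0, so its slope leaned on the single low library.

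Transcript length moved along the series as well, and the metallothioneins are short. Their read-weighted transcript lengths were between 396 bases (MT1A) and 702 bases (MT1X), whereas MTF1 had 7937, SLC30A1 5893 and SLC39A10 4877. The 557 tested genes under 700 bases had a median slope of 0.39, with 36.1% of them rising and 15.8% falling (edgeR, Benjamini-Hochberg, threshold 0.05), and the 2565 genes of at least 5000 bases had a median slope of −0.31. In the short class, MT2A, MT1E and MT1M had slopes of the opposite sign to its median and MT1A one of the same sign, and in the long class MTF1 and SLC30A1 had slopes of the same sign as its median. The part of length in any of these values was not tested.

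Because each mixed library is a blend of the same 2 RNAs, the pure libraries predict the reads of every gene in it. By the mass ratio, the predicted value lay inside the 95% counting interval of the observed reads in 15 of 27 pairs of gene and library, and the observation was lower than predicted in 13. Over 10019 genes, the libraries were best described by HCC827 shares of 32.7, 55.4 and 78.2% of reads in place of 25, 50 and 75%. With those shares, 18 of 27 predictions lay inside. The intervals leave out the counting error of the pure libraries.

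MT1E alone gave shares of 34.1% ± 1.74, 53.7% ± 1.37 and 77.4% ± 0.943 (SE from counts) for HCC827 in the 3 mixed libraries. MT2A gave 38.2% ± 2.24, 53.6% ± 2.11 and 82.5% ± 2.16. Both were nearer to the shares estimated from all genes than to the mass ratio in 75:25. With the estimated shares, MT2A still lay outside its interval in 75:25 and 25:75, at 0.971 and 0.970 of the prediction. The departures from the mass ratio were wider in rare genes: SLC30A1 had 30.6 CPM in 75:25 where the mass ratio predicted 21.9, MT1A had 24.4 there against 16.4, and MT1F had 28.0 in 25:75 against 20.7. In the opposite direction, MT1M had 3.94 CPM in 75:25 against 7.93.

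**Figure D3:**
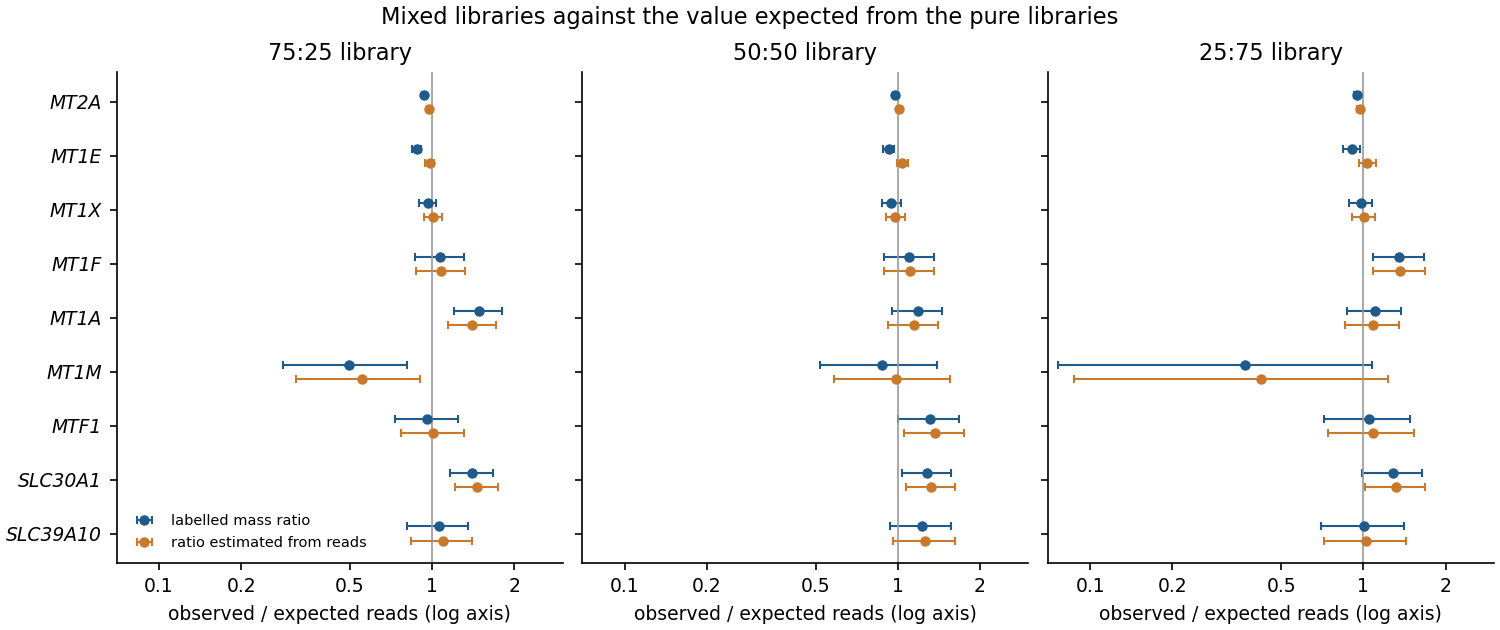
Observed CPM divided by the CPM predicted from the pure libraries for the 9 genes in the 3 mixed libraries, with the prediction made from the mass ratio and from the HCC827 share estimated over all genes. MT1E, below 1 under the mass ratio, comes closer to 1 with the estimated share, and SLC30A1 lies above 1 in all 3 libraries under both.

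The use of transcripts within a gene does not depend on the gene sums that chose the members and could be tested. Of the 10 genes, 5 had at least 2 transcripts with enough reads: MT2A, MT1E, MT1X, MT1F and SLC39A10. None was called by diffSpliceDGE of edgeR with Simes p-values and Benjamini-Hochberg adjustment, against 0.402% of 7455 genes. The count was 0 also at an unadjusted p under 0.05, and 0 by the gene-level F test of edgeR, adjusted or not. The smallest Simes p-values were 0.315 for MT1X and 0.414 for MT2A, each adjusted to 1. With 5 libraries and few calls among all genes, a modest shift in transcript use was not detectable.

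The full-length protein-coding transcript MT2A-201 took 44.8, 42.9, 44.3, 51.9 and 48.0% of MT2A reads. The retained-intron transcript MT2A-203 took 24.6, 25.3, 24.4, 21.4 and 22.4%, and the transcript MT2A-205 took 26.9, 27.6, 27.5, 24.1 and 25.9%. The 25:75 library had the highest share of MT2A-201 and the lowest of the other 2, followed by 0:100, whose MT2A-201 share was also above those of the remaining 3 libraries. MT1X was alike: MT1X-201 took 56.3, 56.2, 55.1, 68.6 and 61.2% of its reads, and the retained-intron MT1X-204 took 21.1, 22.3, 22.2, 12.1 and 19.8%. MT1E-201 took 54.3, 51.5, 51.6 and 59.5% in the libraries with NCI-H1975 RNA. Over all genes, retained-intron transcripts took 7.60, 7.70, 7.76, 7.49 and 7.85% of reads.

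**Figure D4:**
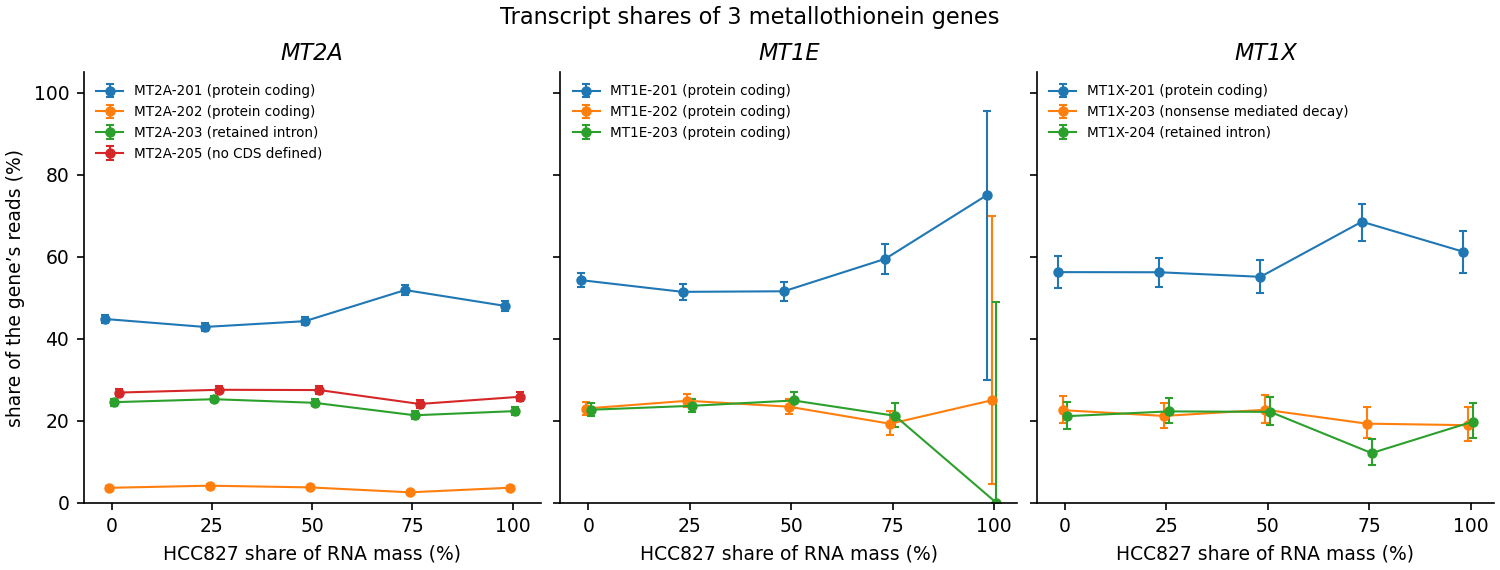
Share of the reads of MT2A, MT1E and MT1X taken by each transcript in each library, in percent. MT2A-201 stays between 42.9 and 51.9%, and in 25:75 the first transcript of all 3 genes takes a larger share than in 50:50.

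Zinc transport was described with the other carriers of both families, the SLC30 exporters and the SLC39 importers. Of 22 listed genes 15 were tested, and by the edgeR quasi-likelihood test with Benjamini-Hochberg adjustment 3 rose and 7 fell from NCI-H1975 to HCC827. Among all 13492 genes tested 45.8% were called, 23.5% rising and 22.3% falling. The median slope of the 15 was −0.60 against −0.035 over all tested genes. Among the SLC30 genes, listed here as exporters, 0 of 5 tested rose and 3 fell. Among importers 3 of 10 rose and 4 fell. Under scaling by library totals, which lowers the median slope of all genes to −0.44, 1 rose and 11 fell, and without the 0:100 library only 4 of the 15 were called.

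The rising importers were SLC39A4, the carrier of dietary zinc uptake in the gut, at 21.2 TMM-scaled CPM in 100:0 and 40.2 in 0:100 (slope 0.86 ± 0.20), SLC39A11, from 55.4 to 95.2 (0.78 ± 0.14), and SLC39A1, from 141 to 190 (0.40 ± 0.13). Their edgeR adjusted p-values were 0.0037, 0.000586 and 0.021, but 2 of these calls depended on the setting. SLC39A4 had a slope of 0.46 under library totals and 0.76 without 0:100, and was called in neither. SLC39A1 had −0.0048 under library totals, and was not called without 75:25 (0.36) or without 0:100 (0.24). SLC30A4, an exporter of vesicles, fell by 3.60 ± 1.07 on the log2 scale, from 16 and 17 reads in the first 2 libraries to 2, 5 and 0 in the last 3 (edgeR adjusted p = 0.0147), and was not called without 0:100 (−2.93). SLC30A6, a carrier of the Golgi, had 26.2 TMM-scaled CPM in 100:0 and 11.9 in 0:100 (edgeR adjusted p = 0.0144), and without 0:100 its slope was −0.53 ± 0.33 and not called.

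SLC39A13 (−0.87 ± 0.23), an importer of the secretory pathway, and SLC39A3 (−0.78 ± 0.19), one of the plasma membrane, also fell, the former not past the threshold without 100:0 (−0.81). So did SLC39A9, with a slope of −1.11 ± 0.20, but it overlaps the far more abundant ERH on the opposite strand (3629 reads in all against 663), and reads of the pair could not be separated here. The remaining genes are named after their values were seen: SLC30A9 (−0.70) and SLC39A14 (−0.60) fell, but were not called without 0:100 (−0.38 and −0.35), and SLC39A6, SLC39A7, SLC39A8, SLC30A5 and SLC30A7 were not past the threshold. The 7 genes not tested had at most 4 reads in any library.

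A second list held 21 genes of copper handling, targets of MTF1 other than metallothioneins, and genes induced by glucocorticoids, with HMOX1 for oxidative stress. Of 17 tested, 5 rose and 6 fell by the edgeR test (Benjamini-Hochberg), with a median slope of −0.076, beside 23.5% rising and 22.3% falling over all genes, and library totals gave 4 and 8. Without the 100:0 library 7 were called. Copper handling had 0 rising and 2 falling of 6, MTF1 targets with HMOX1 2 and 2 of 6, and glucocorticoid-induced genes 3 and 2 of 5. In none of these sublists did all tested members move one way.

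HMOX1, the heme oxygenase that heme, heavy metals and oxidants induce, had 126, 96.1, 66.0, 44.7 and 11.9 TMM-scaled CPM, in the same order of libraries as MT2A and MT1E (slope −2.68 ± 0.30, edgeR adjusted p = 2.08e-05). NDRG1, a stress-responsive gene listed among the MTF1 targets, was at 219 in 100:0 and 50.9 in 0:100 (slope −1.95 ± 0.17). Of the glucocorticoid-induced genes, KLF9 (−2.17 ± 0.45) and FKBP5 (−1.02 ± 0.33) fell, whereas DUSP1 (1.85 ± 0.36), TSC22D3 (1.63 ± 0.21) and PER1 (0.97 ± 0.27) rose. FKBP5 was not called without 100:0 (−0.77), without 25:75 (−0.73) or by DESeq2 (−0.97), and without 0:100 its slope was −1.64. PER1 was not called under library totals (0.56) or without 100:0 (0.65). TSC22D3, which encodes the glucocorticoid-induced leucine zipper protein, was at 28.6 and 95.9 TMM-scaled CPM in the pure libraries. Of the other MTF1 targets CSRP1 (1.13 ± 0.14) and SELENOH (0.90 ± 0.12) rose. The copper chaperone ATOX1 fell (−0.44 ± 0.14), but it overlaps G3BP1 on the opposite strand and was not called without 100:0 (−0.40), without 0:100 (−0.41) or by DESeq2 (−0.43).

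The genes around the cluster give its local background. Within 1 Mb of the interval from MT4 to MT1X, 73 other genes were annotated and 22 were tested, of which 8 rose and 4 fell (edgeR, Benjamini-Hochberg), with a median slope of 0.20. Over all genes 45.8% were called, so the share called was near the background, and library totals gave 4 rising and 5 falling. Genes near the cluster did not follow MT1E: BBS2 had a slope of −0.029, OGFOD1 0.19 and NUDT21 0.20, none of them called. Under library totals these were −0.44, −0.21 and −0.21, again not called. NUP93, the first tested gene past MT1X, had 0.58 (edgeR adjusted p = 0.0055) and 0.17 under library totals, where it was not called. These 4 neighbours were named for their position.

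The falling genes were the RNA ENSG00000291105 inside the cluster (−3.37 ± 0.55, edgeR adjusted p = 0.000309), GNAO1, LPCAT2 and RSPRY1. GNAO1, a G protein subunit of neurons, had 21, 13, 13, 4 and 0 reads and a slope of −3.16 ± 0.87, not called without 0:100 (−2.34) or without 100:0 (−3.45), and LPCAT2, an acyltransferase of phospholipids, had −2.25 ± 0.45. RSPRY1 had −0.61 ± 0.18 and was not called without 100:0 (−0.59) or by DESeq2 (−0.59). Without 0:100 the slopes of ENSG00000291105, LPCAT2 and RSPRY1 were −2.37, −1.92 and −0.77. The largest rising slopes were those of DOK4 (2.04 ± 0.28) and POLR2C (1.05 ± 0.18), which overlap on opposite strands, COQ9 (0.90 ± 0.19), PLLP (0.88 ± 0.17) and CCDC102A (0.86 ± 0.24), the last not called under library totals (0.45) or without 100:0 (0.60). Genes with slopes of both signs thus lay on the same stretch of chromosome 16 as MT1E and MT2A.

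**Figure D5:**
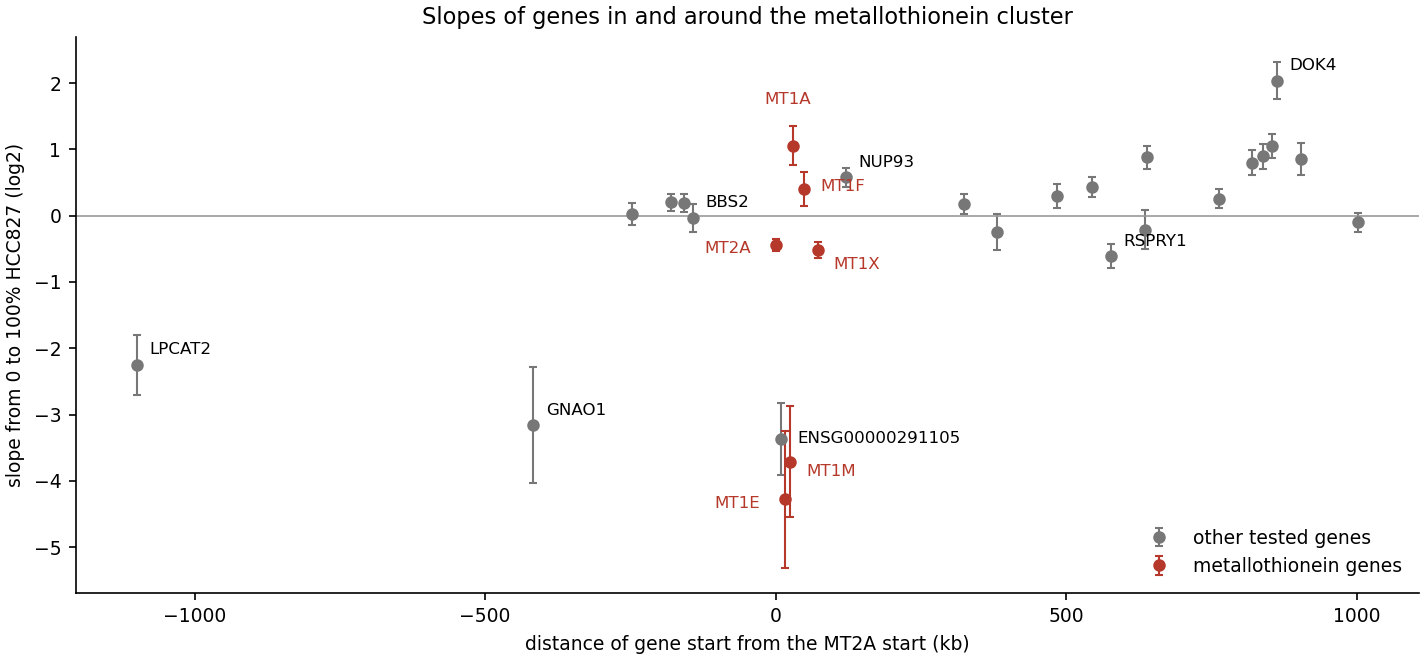
Fitted slope (log2 change from 100:0 to 0:100, with its SE) of metallothioneins and other tested genes within 1 Mb, against distance from the start of MT2A. MT1E (−4.28), MT1M (−3.71) and ENSG00000291105 (−3.37) lie far below MT2A (−0.44) and MT1X (−0.52) of the same cluster and below neighbours such as BBS2 (−0.029).

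Among 13486 tested genes other than metallothioneins, the 3 whose log2 levels over the 5 libraries ran nearest to MT1E, by the root mean square difference after centring, were CT45A2 and SNRPN (both 0.16) and CT45A3 (0.27). CT45A2 had 270, 325, 178, 62 and 0 reads and SNRPN 330, 328, 180, 85 and 0, so each was read in every library with NCI-H1975 RNA and not in 0:100. Logs were taken after adding a prior count of 0.5. The 0:100 point of these genes and of CT45A3, with 0 reads, was set by that count and by depth. The CT45A genes are near-identical copies, so how reads were split among them is unsure. Nearest to MT2A were BTBD7 (0.0074), DNAJC25 (0.013) and MKNK2 (0.015), which had slopes of −0.42, −0.44 and −0.45. With 5 points that share the same 2 RNAs, many genes have such likeness, and it is given as a description.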

How the data were processed

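Each of the 5 libraries had 1 table in which the authors deposited an estimated count of reads per transcript, unscaled, with the transcript length. The values were rounded to whole reads, which altered 2 of them, and 161 repeated identifiers were summed. The submitters' processing notes name minimap2 2.24, Salmon 1.9.0 and GRCh38; how they were run and the annotation release are not given in the sources used here. Per the labels' protocols, cDNA was amplified by PCR with barcodes. Identifiers were paired with genes through GENCODE v44: 224076 of 227751 human transcripts matched, with 98.5 to 98.7% of reads, and 3675 did not. The slope on the HCC827 mass fraction was tested over all genes with at least 10 reads in at least 2 libraries by edgeR 4.0.16 in R 4.3.3 (TMM, quasi-likelihood, Benjamini-Hochberg, threshold 0.05), and transcript use by diffSpliceDGE. With 1 library per ratio, scatter about the trend is the only error, and the test compares 2 RNA preparations. Counts have exact Poisson intervals and shares Wilson intervals, at 95%, and a count of 0 was taken as up to 3 reads. Prediction in mixed libraries weighted the pure libraries. The slope and transcript-use tests were also run on simulated counts in which a small part of the genes changed. Those runs did not test the scaling between the libraries, and their outcome is not given here. Sequences are from RefSeq and GENCODE.

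All 10 members were named, as were up to 5 genes of each list in each direction with the largest slope past the threshold, any other metallothionein gene with at least 10 reads, and the 3 genes most like MT1E and MT2A. One gene is not reported here. The members and the lists were chosen with earlier results of these data known. Alternatives were RLE factors, library totals, other filters, the HCC827 share estimated from reads, DESeq2 1.42.0 and leaving out each library.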

Additional observations from a re-analysis of the deposited data

How the results depend on the processing

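No paired analysis was possible because each ratio had 1 library. Leaving out each library in turn gave 4 to 10 zinc transport genes called (4 without 0:100) and 7 to 10 of the copper, MTF1 target and glucocorticoid list (7 without 100:0). Fewer libraries were fitted in those settings. Under library totals the slope of MT1F turned to −0.011 and its log2 ratio to −0.17, and the slope of SLC39A1 turned to −0.0048. The counts of zinc transport, copper and induction, flanking and isoform calls stayed within 1.5 times their reported values under the other settings tried. Of 290 comparisons of named list genes with an alternative, 268 kept direction and side of the threshold, 21 lost the threshold and 1 turned. Of 97 such comparisons of member slopes, 81 stayed the same, 15 moved in size and 1 turned. DESeq2 called 4791 genes in all, against 6175 by edgeR. Depth limited MT1F, MT1A, MT1M, MT1G, MTF1, SLC30A1 and SLC39A10, each with at most 124 reads in a library.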
